A study of Sus scrofa with 12 samples.

Results

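The SLC25 family comprises the nuclear-encoded carriers that move metabolites across the inner mitochondrial membrane. Members were taken as every row of the gene table whose name begins with SLC25A, with rows sharing a name summed. This gave 34 genes from 44 assembled loci, out of 17049 gene names, and 32 of the 34 had a mean of at least 0.5 FPKM (fragments scaled to transcript length and library size) over the 12 libraries and entered the tests. The 2 left out were SLC25A21, just under the limit with a mean of 0.491 FPKM, and SLC25A34 with 0.190 FPKM. The lowest genes inside the limit were SLC25A40 with a mean of 1.01 FPKM, SLC25A32 with 1.07 FPKM and SLC25A35 with 1.08 FPKM.

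Poly(A) RNA of piglet jejunum (Sus scrofa) was sequenced in 4 groups of 3 libraries, described in the record as biological replicates. Sows received either a corn and soybean meal diet (Con) or that diet with 300 mg/kg resveratrol (Res), a plant polyphenol, from 20 days after breeding until the end of lactation, and their litters were cross-fostered within diet. Sucking piglets were sampled on the day of weaning, at 21 days of age (W_Con and W_Res), and weaned piglets 7 days later, at 28 days of age (PW_Con and PW_Res). Weaning and 7 days of age therefore differ together between the groups, and cannot be told apart.

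Most carriers exchange one solute for another, so that fuel, phosphate, nucleotides, amino acids, cofactors and iron reach the matrix while products leave it. The enterocyte relies on them to export ATP, to burn long-chain fatty acids brought in as carnitine esters, and to run the citrulline, glutamate and malate-aspartate pathways for which the sucking small intestine is known. A few members sit elsewhere, such as SLC25A17 in the peroxisome and SLC25A46 in the outer mitochondrial membrane.

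The libraries differed in more than diet and age. Of 12 villus enterocyte markers, 10 were matched and tested, and their summed level ran from 4910 to 31486 FPKM, while ALPI and LCT were not matched by name. FABP6, an ileal bile acid binding protein, ranged from 1.70 to 24110 FPKM among libraries labelled jejunum, and the sum of 5 distal small intestine markers ranged from 145 to 24796 FPKM. In the libraries with high sums FABP6 made up most of the sum. The study reported FABP6, NR1H4 and SLC51A, all among these markers, as raised by weaning. A covariate from this sum can therefore take up part of a weaning difference. The 8 smooth muscle markers found, of 10, summed to 1828, 3984 and 671 FPKM in the W_Res libraries, against 155 to 647 FPKM in the other 9 libraries. They were higher by the limma test (unadjusted P under 0.05) for 7 of 8 in resveratrol against control sucking piglets (13% of all genes), and lower for 7 of 8 in weaned against sucking piglets of the resveratrol litters (14.2% of all genes). In the control litters 5 of 10 villus markers were lower after weaning at the same limit (7.21% of all genes). In resveratrol against control sucking piglets 3 of 10 villus markers and 5 of 12 lymphocyte markers were lower (5.45% of all genes) and 1 lymphocyte marker was higher. In weaned piglets 3 of 12 lymphocyte markers were lower with resveratrol (5.25% of all genes), and all 12 had log2 differences below 0. The summed lymphocyte markers ran from 285 to 336 FPKM in W_Con, 264 to 430 FPKM in PW_Con, 238 to 315 FPKM in W_Res and 214 to 293 FPKM in PW_Res. The part of these markers in the results on the carriers was not tested beyond the fits given beside them, and in whole tissue fewer cells of a type and less RNA per cell cannot be told apart. The smooth muscle sum was highest in the W_Res libraries, so as a covariate it overlaps with that group. In such a fit a P above 0.05 can come from a wider standard error, with the difference little changed.

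Together the 32 carriers made up 0.307% to 0.453% of the summed FPKM of a library. Their sum was 1319 ± 77.7 FPKM in sucking control, 1152 ± 59.8 FPKM in weaned control, 1168 ± 122 FPKM in sucking resveratrol and 1385 ± 111 FPKM in weaned resveratrol piglets (mean ± SD, n = 3). FPKM is per transcript length, so levels can be set side by side between genes. The row named SLC25A6, an ADP/ATP carrier, and SLC25A3, the phosphate carrier, held on average 38.8% and 24.0% of the family's FPKM. SLC25A1, the citrate carrier, followed with 5.68%, SLC25A39, which carries glutathione, with 5.58%, and SLC25A11, the oxoglutarate carrier, with 4.63%. The ADP/ATP carriers as a class took between 29.2% of the family's FPKM, in W_Res replicate 2, and 46.0%, in W_Res replicate 3, so the widest spread of this share lay within 1 group.

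**Figure D1:**
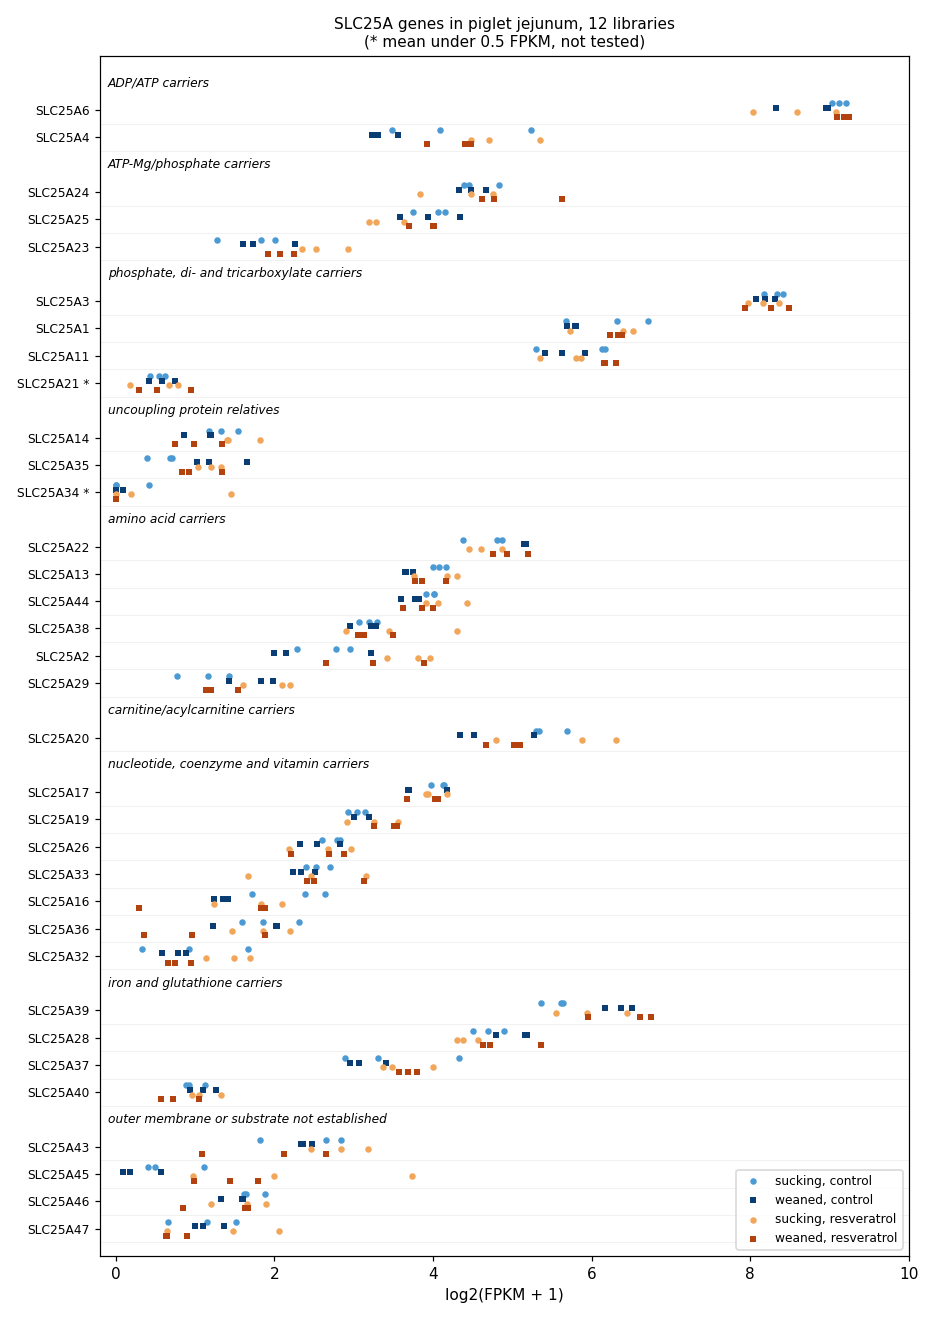
Level of each of the 34 SLC25A genes in the 12 libraries, as log2(FPKM + 1), grouped by substrate class, with 1 point per library. SLC25A6 and SLC25A3 lie far to the right of the other carriers, and the 2 genes marked with an asterisk, SLC25A21 and SLC25A34, were not tested.

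The names of 2 rows were not settled. SLC25A6 encodes ANT3 and SLC25A5 the closely related ANT2, and SLC25A5 was not among the 34 names. Of the gene names within 12 loci of the SLC25A6 row, 8 also lie within 12 genes of SLC25A5 in the RefSeq annotation of Sscrofa11.1 (LONRF3, NKRF, PGRMC1, RPL39, SEPT6, SLC25A43, UBE2A and UPF3B), against 1 near RefSeq's SLC25A6. Likewise, the row named SLC25A2, an ornithine carrier, shared FOXO1, MRPS31, THSD1 and VPS36 with the surroundings of SLC25A15, the main ornithine carrier of the urea cycle, and no neighbour under its own name. The table was built on another assembly, so only neighbouring names were compared. The other 32 names each shared at least 1 neighbour with their RefSeq gene. Both rows are called here by their deposited names.

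The first comparison asked how the carriers differed between sucking and weaned piglets of control sows. In limma fits of log2(FPKM + 1), 6 of the 32 genes had an unadjusted P under 0.05, 4 higher (8.11% of all genes) and 2 lower (7.21%) after weaning, where 15.3% of all 12886 genes tested did. With median-of-ratios rescaling the split was 4 higher and 1 lower, and with quantile normalization 4 and 3. No member had an adjusted p under 0.05 (0 of 32, with 0% of all genes), and 0 met the standard of P under 0.05 with a log2 difference beyond 1 (3.1% of all genes). The latter is on the log2(FPKM + 1) scale, which understates the change of low genes. It was met by 1 member with a pseudocount of 0.1 or without PW_Con replicate 3, and by 2 without W_Con replicate 1 or with the distal marker sum as a covariate. The study used the same limits in its own analysis of the 6 control libraries, and reported SLC25A16 and SLC25A4 as lowered by weaning. In 10 of the 32 genes the 3 sucking libraries stood wholly apart from the 3 weaned ones, against 24.9% of all genes. The median log2 difference was -0.18 over the members and -0.01 over all genes. The count of 6 fell to 3 without W_Con replicate 3, PW_Con replicate 1 or PW_Con replicate 2 (11.4%, 13.4% and 11.6% of all genes). It fell to 2 without PW_Con replicate 3 (11.1%), and was 3 with the distal marker sum as a covariate (17.7%).

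In the resveratrol litters, weaned and sucking piglets differed at that limit in 6 of 32 genes, 3 higher (3.4% of all genes) and 3 lower (14.2%), beside 17.6% of all genes. The split was 7 higher and 1 lower with median-of-ratios rescaling and 3 and 1 with quantile normalization. Again 0 members had an adjusted p under 0.05 (0% of all genes), and 0 met the standard with the log2 limit (4.94% of all genes), against 2 with a pseudocount of 0.1 or without W_Res replicate 1, W_Res replicate 3 or PW_Res replicate 1, and 3 without both W_Res replicates 1 and 2. The groups did not overlap in 9 members (21.7% of all genes). The median log2 difference of -0.18 lay beside -0.15 over all genes. The count was 2 without W_Res replicate 2 or PW_Res replicate 3 (10.5% and 11.7% of all genes) and 1 without PW_Res replicate 2 (12.3%). It was 1 with the smooth muscle marker sum as a covariate, a fit in which 6.08% of all genes passed.

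Over both litter sets, with 6 sucking and 6 weaned piglets, 8 of 32 genes passed an unadjusted P of 0.05, 3 higher (6.57% of all genes) and 5 lower (12.5%), beside 19% of all genes. With median-of-ratios rescaling 3 were higher and 2 lower, and with quantile normalization 4 and 2. Here 0 of 32 had an adjusted p under 0.05, where 10 genes of all tested (0.0776%) did. The standard with the log2 limit was met by 0 (1.42% of all genes), against 1 with the Ballgown-type model. That is a linear model per gene with a library-wide expression sum as a covariate. With the distal marker sum as a covariate 1 member, SLC25A39, had an adjusted p under 0.05. In that fit 11 members and 22.6% of all genes had an unadjusted P under 0.05. In no member were the 6 weaned libraries all above or all below the 6 sucking ones (1.58% of all genes). The median log2 difference was -0.17 over the members and -0.10 over all genes. The count was 5 without W_Con replicate 2 or PW_Con replicate 2 (15.4% and 15.8% of all genes). It was 4 with the smooth muscle marker sum as a covariate (15.6%).

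**Figure D2:**
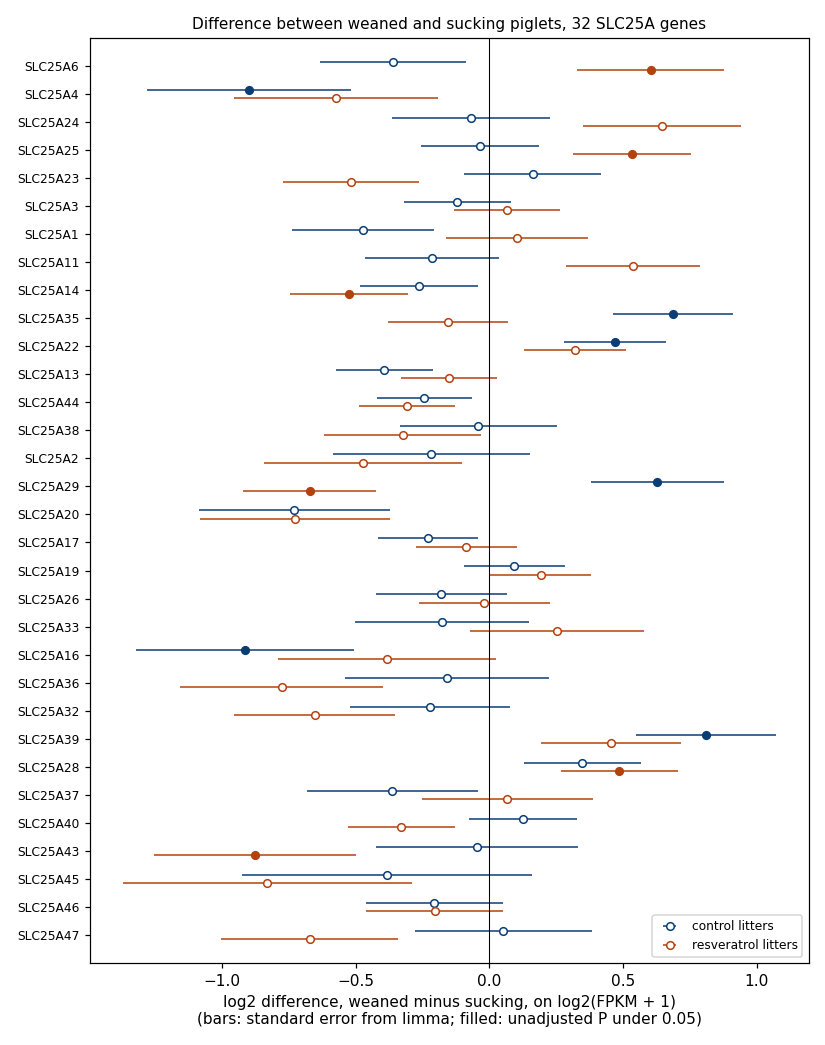
Log2 difference between weaned and sucking piglets of each of the 32 tested SLC25A genes in control and in resveratrol litters, with the standard error from limma as bars and filled points for an unadjusted P under 0.05. SLC25A39, SLC25A22 and SLC25A28 lie above 0 in both litter sets, SLC25A4, SLC25A20, SLC25A16 and SLC25A44 below 0 in both, and SLC25A29 on opposite sides.

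The summed level of the 4 iron and glutathione carriers had a higher mean in weaned than in sucking piglets of both litter sets, with overlap in the resveratrol litters. Over both litter sets 2 of the 4 had log2 differences above 0 and 2 below, and SLC25A39 had the highest mean of the 4. The sum was 83.2 ± 12.4 FPKM in sucking and 122 ± 9.52 FPKM in weaned control piglets, and 97.4 ± 18.8 and 130 ± 31.6 FPKM in the resveratrol litters (mean ± SD, n = 3). SLC25A39 brings glutathione, the main thiol antioxidant, into the matrix. It stood at 40.3, 47.9 and 48.6 FPKM in the sucking control libraries and at 70.8, 81.9 and 90.0 FPKM in the weaned control libraries. In the resveratrol litters it measured 86.5, 60.5 and 46.0 FPKM before and 61.0, 107 and 96.8 FPKM after weaning. Every weaned control library was above every sucking control library, whereas the resveratrol groups overlapped through W_Res replicate 1. In control litters the log2 difference was 0.81 ± 0.261 (SE, limma adjusted p = 0.180), and it was 0.46 ± 0.261 in resveratrol litters (adjusted p = 0.386). Over both it was 0.63 ± 0.185 (adjusted p = 0.135). With the distal marker sum as a covariate this was 0.78 (adjusted p = 0.0495), and with the Ballgown-type model it was 0.39 (adjusted p = 0.752). The test of the difference between litter sets gave -0.36 ± 0.369 (adjusted p = 0.689). The control litter difference kept P under 0.05 in each of the 25 other settings tried, with log2 differences from 0.73 to 1.05 and adjusted p from 0.0717 to 0.409.

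SLC25A28, or mitoferrin 2, imports iron into mitochondria for haem and iron-sulphur cluster synthesis. It was at 24.8, 21.8 and 28.8 FPKM in sucking control and 34.9, 26.6 and 35.4 FPKM in weaned control libraries, so that 1 weaned library fell among the sucking ones. In the resveratrol litters it was at 18.8, 19.7 and 22.8 FPKM before and 23.7, 40.2 and 25.4 FPKM after weaning, without overlap. The log2 difference over both litter sets was 0.42 ± 0.155 (limma adjusted p = 0.203), and without W_Con replicate 2 it was 0.37 (P above 0.05). In the resveratrol litters alone it was 0.49 ± 0.219 (adjusted p = 0.281), and P rose above 0.05 in 8 of the 12 fits that each left out 1 library, with values of 0.25, without PW_Res replicate 2, to 0.49. With the smooth muscle sum as a covariate the values were 0.33 over both and 0.29 in resveratrol litters (P above 0.05 for each). Its paralogue SLC25A37, or mitoferrin 1, ranged from 6.39 to 19.1 FPKM and showed no such order, with a log2 difference over both litter sets of -0.15 ± 0.226 (adjusted p = 0.749). SLC25A40, related to SLC25A39, was near 1 FPKM in all groups.

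Among the enzymes of haem synthesis, one use of the imported iron, log2 differences went both ways. CPOX, a later enzyme of that pathway, had 0.47 ± 0.19 over both litter sets (limma adjusted p = 0.225). FECH, which inserts iron into haem, had a log2 difference over both litter sets of -0.28 ± 0.12 (limma adjusted p = 0.241). ALAS1, the first enzyme of haem synthesis, had -0.25 ± 0.166 (adjusted p = 0.433). Of the 11 haem and iron-sulphur enzymes listed and tested, 1 was higher and 1 lower over both litter sets at the unadjusted limit, beside 6.57% and 12.5% of all genes.

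SLC25A20, the carnitine/acylcarnitine carrier, takes long-chain acylcarnitines into the matrix for beta-oxidation. It was at 50.6, 38.4 and 39.5 FPKM in sucking control and 19.2, 22.0 and 37.7 FPKM in weaned control piglets. In the resveratrol litters the values were 77.9, 57.9 and 26.7 FPKM before and 24.3, 33.3 and 31.6 FPKM after weaning. The control groups stood apart by less than 1 FPKM, between 38.4 and 37.7, and in the resveratrol litters W_Res replicate 3 lay among the weaned libraries. SLC25A20 had a log2 difference of -0.73 ± 0.357 in control litters (limma adjusted p = 0.364) and -0.73 ± 0.357 in resveratrol litters (adjusted p = 0.313). Over both it was -0.73 ± 0.253 (adjusted p = 0.175), and P stayed under 0.05 when any 1 library was left out. Its 2 highest values came from W_Res replicates 1 and 2, the libraries with the highest smooth muscle sums. Without these 2 the sucking resveratrol group is W_Res replicate 3 alone, the lowest of its 3 values, which the fit assumes to vary like the other groups, and the difference over both litter sets was -0.30. With all 12 libraries and the smooth muscle sum as a covariate it was -0.56 (P above 0.05).

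CPT2, which turns the imported acylcarnitine back into acyl-CoA, was at 33.6, 56.1 and 69.9 FPKM in sucking and 30.5, 28.0 and 25.1 FPKM in weaned control piglets, without overlap. Its log2 difference there was -0.85 ± 0.435 (limma adjusted p = 0.388), and -0.11 ± 0.435 in the resveratrol litters (adjusted p = 0.919). The study reported CPT2 as lower in weaned control piglets, by RNA-seq and by qRT-PCR. Of the 5 carnitine shuttle enzymes tested, of 6 listed, 1 was lower (12.5% of all genes) and 0 higher (6.57%) over both litter sets. This was at the unadjusted limit of the limma test, and the enzyme was CROT, with -0.54 ± 0.149 (adjusted p = 0.126).

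**Figure D3:**
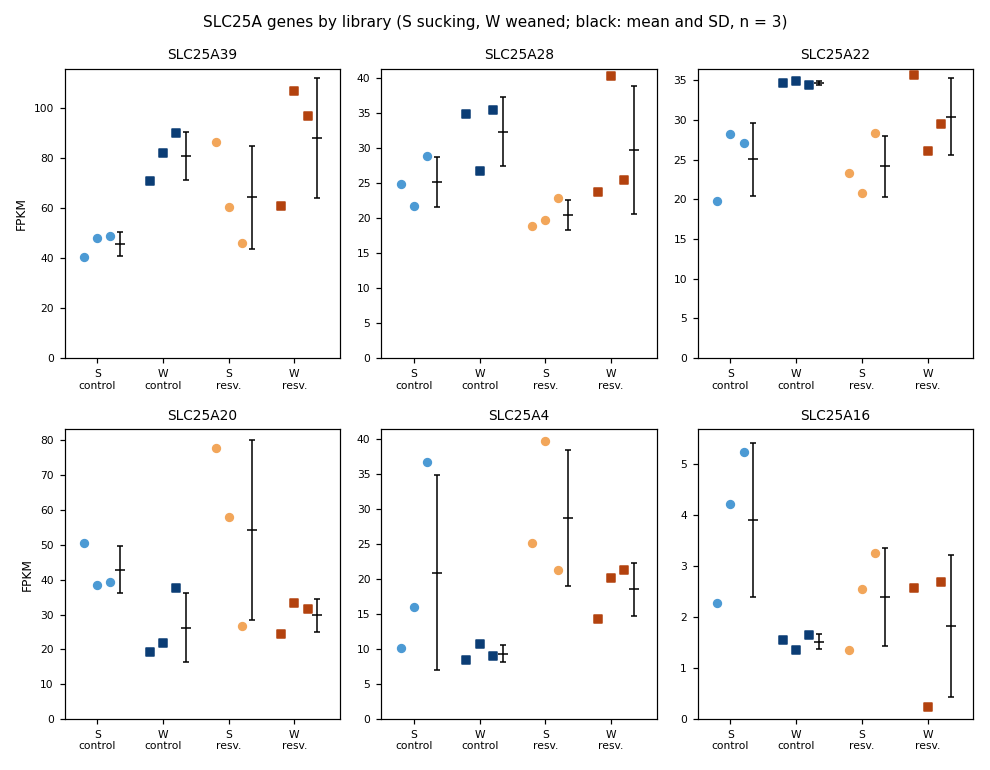
FPKM of SLC25A39, SLC25A28, SLC25A22, SLC25A20, SLC25A4 and SLC25A16 in each library, with the group mean and SD (n = 3) in black. The first 3 genes had higher means in weaned than in sucking piglets of both litter sets and the last 3 lower means.

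The ADP/ATP carriers export the ATP made in the matrix. SLC25A4, or ANT1, known as the isoform of heart and skeletal muscle, was at 10.1, 16.0 and 36.6 FPKM in sucking control and 8.36, 10.8 and 8.93 FPKM in weaned control libraries. It was at 25.1, 39.7 and 21.3 FPKM in sucking and 14.2, 20.2 and 21.3 FPKM in weaned resveratrol libraries. The control groups overlapped and the highest sucking control value came from 1 library, W_Con replicate 3, which had the lowest smooth muscle sum of all. The highest value of any library, 39.7 FPKM, came from W_Res replicate 2, which had the highest smooth muscle sum. SLC25A4 had a log2 difference of -0.90 ± 0.383 in control litters (limma adjusted p = 0.295), -0.57 ± 0.383 in resveratrol litters (adjusted p = 0.459) and -0.74 ± 0.271 over both (adjusted p = 0.198). Without W_Con replicate 3, PW_Con replicate 1 or PW_Con replicate 3 the control difference lay between -0.87 and -0.42 (P above 0.05). It was -0.51 with the distal marker sum and -0.85 with the smooth muscle sum as a covariate (P above 0.05 for each). Over both litter sets it was -0.61 without W_Res replicate 2 (P above 0.05). In weaned piglets SLC25A4 was higher in resveratrol than in control litters in all 3 libraries.

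The row named SLC25A6 was the most abundant carrier in every group mean. It stood at 521, 590 and 553 FPKM in sucking control, 498, 506 and 319 FPKM in weaned control, 386, 260 and 542 FPKM in sucking resveratrol and 546, 604 and 580 FPKM in weaned resveratrol libraries. In control litters the weaned libraries all lay below the sucking ones, and in resveratrol litters all above, though the nearest pairs were close, at 506 and 521 FPKM and at 542 and 546 FPKM. Weaned minus sucking, the log2 value was -0.36 ± 0.274 in control litters (adjusted p = 0.591) and 0.60 ± 0.274 in resveratrol litters (limma adjusted p = 0.282). The latter kept P under 0.05 in 2 of the 12 fits that left out 1 library and was 0.33, without W_Res replicate 2, to 0.64 in the other 10. It was 0.22 with the smooth muscle sum as a covariate and 0.58 with the distal sum (P above 0.05 for each). The Ballgown-type model gave -0.04, and with W_Res replicate 3 as the only sucking resveratrol library it was 0.09. The lowest value, 260 FPKM, was in W_Res replicate 2, which had the highest smooth muscle sum.

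The ATP-Mg/phosphate carriers, which are regulated by calcium and adjust the nucleotide pool of the matrix, differed in order. SLC25A24 was the most abundant of the 3, with a range of 13.3 to 48.6 FPKM and no unadjusted P under 0.05 in any comparison. SLC25A25 was at 15.7, 12.4 and 16.8 FPKM in sucking control and 11.4, 8.75 and 8.11 FPKM in sucking resveratrol libraries, then at 19.2, 14.4 and 11.0 FPKM in weaned control and 15.1, 15.0 and 12.0 FPKM in weaned resveratrol libraries. It was thus lowest in sucking resveratrol piglets, without overlap with either neighbouring group. The weaning difference was 0.53 ± 0.221 in resveratrol litters (limma adjusted p = 0.248) and -0.03 ± 0.221 in control litters (adjusted p = 0.971). In the resveratrol litters it was 0.44 to 0.49 (P above 0.05) without W_Res replicate 2, W_Res replicate 3, PW_Res replicate 1 or PW_Res replicate 2.

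Of the 3 tested carriers of phosphate and of di- and tricarboxylates, none had an unadjusted P under 0.05 for weaning. Between 15.3% and 19% of all genes passed that limit for weaning, so 0 of 3 does not set this class apart. SLC25A3, which supplies the phosphate for ATP synthesis, was among the steadiest, with group means of 318 ± 26.8, 292 ± 24.5, 287 ± 39.4 and 303 ± 58.8 FPKM in W_Con, PW_Con, W_Res and PW_Res (SD, n = 3). Its log2 difference over both litter sets was -0.03 ± 0.141 (adjusted p = 0.935). SLC25A1 exports citrate for fatty acid synthesis and had group means of 77.4 ± 26.7, 53.2 ± 2.12, 75.3 ± 20.6 and 78.7 ± 4.13 FPKM in the same order. ACLY, which splits that citrate in the cytosol, had a log2 difference of 0.10 ± 0.223 over both litter sets (adjusted p = 0.830).

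SLC25A11 exchanges oxoglutarate for malate and SLC25A13, or citrin, aspartate for glutamate, and together they serve the malate-aspartate shuttle. SLC25A13 was at 15.8, 17.0 and 15.1 FPKM in sucking control and 11.5, 11.7 and 12.5 FPKM in weaned control libraries, without overlap, and at 18.8, 17.0 and 12.6 against 16.8, 13.5 and 12.6 FPKM in the resveratrol litters. Its log2 difference in control litters was -0.39 ± 0.180 (limma adjusted p = 0.327). Of the shuttle's enzymes, mitochondrial MDH2 had a log2 difference of 0.53 ± 0.216 over both litter sets (adjusted p = 0.230), while the cytosolic MDH1 and GOT1 had 0.04 ± 0.213 and -0.02 ± 0.315. Of 6 enzymes of this list tested, of 10 listed, 1 was higher (6.57% of all genes) and 0 lower (12.5%) over both litter sets.

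SLC25A22, a glutamate carrier, had higher means in weaned than in sucking piglets of both litter sets. It was at 19.8, 28.2 and 27.1 FPKM in sucking control and 34.6, 34.9 and 34.4 FPKM in weaned control libraries. In resveratrol litters it was at 23.3, 20.8 and 28.4 FPKM before and 35.6, 26.1 and 29.5 FPKM after weaning. The weaned control libraries lay within 1 FPKM of each other and above all sucking ones, and the resveratrol groups overlapped. The test gave a log2 difference of 0.47 ± 0.190 in control litters (limma adjusted p = 0.275), 0.32 ± 0.190 in resveratrol litters (adjusted p = 0.405) and 0.39 ± 0.135 over both (adjusted p = 0.172). In control litters P was above 0.05, at values of 0.32 to 0.47, without W_Con replicate 1 or any of the 3 PW_Con replicates, and over both it stayed under 0.05 without any 1 library. With the smooth muscle sum as a covariate it was 0.32 over both (P above 0.05), and with the distal sum 0.39 in control litters (P above 0.05).

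SLC25A44, which carries branched-chain amino acids, was at 15.1, 14.0 and 15.1 FPKM in sucking control and 13.2, 11.1 and 12.6 FPKM in weaned control libraries, and at 15.7, 14.0 and 20.6 against 15.0, 11.3 and 13.5 FPKM in resveratrol litters. The log2 difference over both litter sets was -0.28 ± 0.126 (limma adjusted p = 0.261), and P was above 0.05 in 10 of the 12 fits that left out 1 library, at -0.30 to -0.20. SLC25A38, the glycine carrier used in haem synthesis, was between 6.50 and 10.3 FPKM in all libraries but W_Res replicate 3, at 18.7 FPKM.

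The row named SLC25A2 was at 3.87, 6.77 and 5.82 FPKM in sucking control and 8.30, 2.99 and 3.42 FPKM in weaned control libraries, with a log2 difference for weaning of -0.22 ± 0.370 (adjusted p = 0.856). Ornithine carriers feed the intestinal urea cycle enzymes, some of which had lower values after weaning. CPS1, the first of them, was at 209, 152 and 215 FPKM in sucking and 87.6, 76.8 and 101 FPKM in weaned control piglets, with a log2 difference of -1.10 ± 0.358 (limma adjusted p = 0.182). In resveratrol litters CPS1 had -0.31 ± 0.358 (adjusted p = 0.684), with overlapping groups. Over both litter sets CPS1 had -0.71 ± 0.253 (adjusted p = 0.189) and OAT, which makes and uses ornithine, -0.70 ± 0.292 (adjusted p = 0.233). OTC, which joins ornithine and carbamoyl phosphate to citrulline, had -0.12 ± 0.187 (adjusted p = 0.747). Of 10 urea cycle and glutamate enzymes tested, of 12 listed, 3 were lower (12.5% of all genes) and 0 higher (6.57%) over both litter sets at the unadjusted limit, and 0 had an adjusted p under 0.05 in limma.

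SLC25A16, whose product is linked to coenzyme A in mitochondria, was a low carrier with lower levels after weaning in control litters. It was at 2.27, 4.23 and 5.25 FPKM in sucking and 1.55, 1.36 and 1.66 FPKM in weaned control libraries, without overlap. In resveratrol litters it was at 1.36, 2.56 and 3.26 FPKM before and 2.56, 0.228 and 2.69 FPKM after weaning, with overlap. SLC25A16 had a log2 difference of -0.91 ± 0.408 in control litters (limma adjusted p = 0.318) and -0.65 ± 0.288 over both (adjusted p = 0.253). P rose above 0.05 in 6 of the 12 fits without 1 library, at -0.95 to -0.72 in control litters, and in 8 over both, at -0.67 to -0.39. The value of -0.39 was without PW_Res replicate 2, the library at 0.228 FPKM. In control litters it was -0.85 with the smooth muscle covariate (P above 0.05). The other 6 nucleotide, coenzyme and vitamin carriers had no unadjusted P under 0.05 in any comparison, where 7.76% to 19% of all genes did. SLC25A17, which carries coenzyme A, FAD and NAD into the peroxisome, led the class with 16.0 ± 1.10, 13.6 ± 3.01, 15.1 ± 1.74 and 14.2 ± 2.17 FPKM in W_Con, PW_Con, W_Res and PW_Res (SD, n = 3).

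Among the genes that the name rule covers, the uncoupling protein relatives SLC25A14 and SLC25A35 were low. SLC25A14, also called UCP5, was at 1.91, 1.51 and 1.26 FPKM in sucking control, 1.29, 0.817 and 1.29 FPKM in weaned control, 1.64, 2.54 and 1.66 FPKM in sucking resveratrol and 1.52, 0.977 and 0.672 FPKM in weaned resveratrol libraries. The log2 difference for weaning was -0.53 ± 0.220 in resveratrol litters, where the groups did not overlap (limma adjusted p = 0.252), and -0.39 ± 0.156 over both (adjusted p = 0.219). With the smooth muscle sum as a covariate these were -0.18 (P above 0.05) and -0.25 (P above 0.05). The Ballgown-type model turned the value in resveratrol litters to 0.15 and gave -0.03 over both. In resveratrol litters it was -0.51 to -0.39 (P above 0.05) without W_Res replicate 2, PW_Res replicate 2 or PW_Res replicate 3, and over both -0.35 to -0.33 (P above 0.05) without W_Con replicate 1, PW_Con replicate 2, W_Res replicate 2 or PW_Res replicate 3. SLC25A43, an uncharacterised carrier, was at 4.50, 6.18 and 8.07 FPKM in sucking and 5.26, 3.35 and 1.12 FPKM in weaned resveratrol libraries. Its groups overlapped, with a log2 difference of -0.88 ± 0.377 (adjusted p = 0.259) that was -0.28 with the smooth muscle covariate (P above 0.05). Without 1 of W_Res replicate 2, W_Res replicate 3, PW_Res replicate 2 or PW_Res replicate 3, P was above 0.05 at -0.87, -0.70, -0.96 and -0.44.

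Maternal resveratrol was compared in sucking and in weaned piglets. In sucking piglets 6 of 32 carriers had an unadjusted P under 0.05, 5 higher (13% of all genes) and 1 lower (5.45%) with resveratrol, beside 18.5% of all genes. In 5 members the groups did not overlap (21% of all genes). The 2 members that met P under 0.05 with a log2 difference beyond 1 were SLC25A2 and SLC25A45 (4.77% of all genes). This count was 5 with a pseudocount of 0.1, 1 at a mean of at least 5 FPKM, 3 without W_Con replicate 3, W_Res replicate 1 or W_Res replicate 3, 1 with median-of-ratios rescaling and 0 without W_Res replicate 2, with the smooth muscle covariate or with the Ballgown-type model. Here 0 of 32 had an adjusted p under 0.05 (0.0466% of all genes). The median log2 difference was 0.12 over members and 0.08 over all genes. With the smooth muscle marker sum as a covariate 0 of 32 passed an unadjusted P of 0.05 in limma, where 8.26% of all genes did. That sum was highest in the W_Res libraries, so this fit cannot separate it from maternal resveratrol in sucking piglets. Without W_Res replicates 1 and 2 the count was 5 of 32, with W_Res replicate 3 as the only sucking resveratrol library and the spread taken from the other groups.

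SLC25A23, the third ATP-Mg/phosphate carrier, was at 3.02, 2.57 and 1.41 FPKM in control and 4.73, 6.62 and 4.07 FPKM in resveratrol sucking libraries. No library of one group reached the other, and the weaned control and weaned resveratrol libraries were at 2.04, 3.78 and 2.33 FPKM and 3.76, 2.77 and 3.21 FPKM. The log2 difference in sucking piglets was 0.89 ± 0.255 (limma adjusted p = 0.129), and P stayed under 0.05 without any 1 library. It was 0.37 with the smooth muscle sum as a covariate (P above 0.05). SLC25A25 went the other way, with -0.62 ± 0.221 (adjusted p = 0.180), and with -0.53 without W_Con replicate 3 or W_Res replicate 3 (P above 0.05). With the smooth muscle covariate its P was above 0.05 for this comparison and for weaning in resveratrol litters, at -0.62 and 0.54.

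The row named SLC25A2 was at 9.71, 14.6 and 13.1 FPKM in resveratrol sucking libraries, all above the control values of 3.87 to 6.77 FPKM. Resveratrol and control sucking piglets differed by 1.06 ± 0.370 on the log2 scale (limma adjusted p = 0.171), and without W_Con replicate 1 it was 0.87 (P above 0.05). With the smooth muscle covariate it was 1.04 (P above 0.05). In weaned piglets the resveratrol values of 13.8, 5.28 and 8.48 FPKM overlapped with the control ones, with a log2 difference of 0.81 ± 0.370 (adjusted p = 0.643).

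SLC25A45, an orphan carrier, was at 0.321, 1.15 and 0.403 FPKM in control and 2.97, 12.3 and 0.967 FPKM in resveratrol sucking libraries. In weaned piglets it was at 0.0658, 0.487 and 0.133 FPKM in control and 2.46, 1.70 and 0.976 FPKM in resveratrol libraries. The sucking groups overlapped and the weaned groups did not. The log2 difference was 1.57 ± 0.542 in sucking (limma adjusted p = 0.169) and 1.12 ± 0.542 in weaned piglets (adjusted p = 0.654). Without 1 library the sucking difference ran from 0.82, without W_Res replicate 2, to 2.20, without W_Res replicate 3, with P under 0.05 each time. It was 0.22 with the smooth muscle covariate (P above 0.05), and 0.31 when W_Res replicate 3, at 0.967 FPKM, was the only sucking resveratrol library kept. The highest value, 12.3 FPKM, came from W_Res replicate 2, which had the highest smooth muscle sum.

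**Figure D4:**
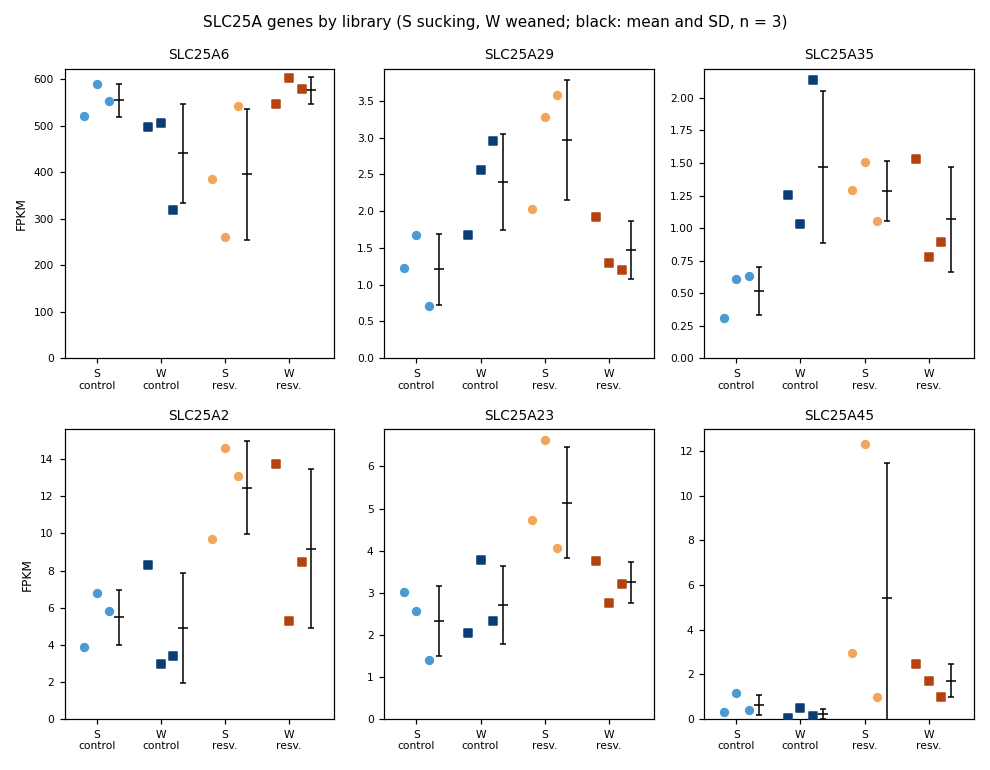
FPKM of SLC25A6, SLC25A29, SLC25A35, SLC25A2, SLC25A23 and SLC25A45 in each library, with the group mean and SD (n = 3) in black, the bars ending at 0. SLC25A29 and SLC25A35 were lowest in sucking control piglets, and SLC25A45 reached 12.3 FPKM in 1 sucking resveratrol library.

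In weaned piglets 2 of 32 carriers had an unadjusted P under 0.05 for maternal resveratrol, both higher (2.51% of all genes, with 5.25% lower), beside 7.76% of all genes. The groups did not overlap in 9 members, 8 of them higher with resveratrol (17.2% of all genes, 5.4% higher). None met the standard with the log2 limit (0 of 32, 1.55% of all genes) or an adjusted p under 0.05 in limma (0 of 32, 0%). The standard was met by 1 member with a pseudocount of 0.1, median-of-ratios rescaling, quantile normalization, the replicate block, the Ballgown-type model, the 6-library fit or the smooth muscle covariate. It was also met by 1 without PW_Con replicate 1, PW_Con replicate 2, W_Res replicate 2, W_Res replicate 3, PW_Res replicate 2 or both W_Res replicates 1 and 2, and by 2 without PW_Res replicate 1. The median log2 difference was 0.07 over the members and -0.07 over all genes. The count of 2 was 0 without PW_Res replicate 3 (5.59% of all genes). It was 1 without W_Con replicate 2, PW_Con replicate 2, W_Res replicate 1 or PW_Res replicate 2 (6.98%, 6.97%, 8.32% and 5.91%). It was 4 without W_Con replicate 3 or W_Res replicate 3 (8.34% and 8.61%). The 2 genes were SLC25A4 and SLC25A11. SLC25A4 was at 8.36 to 10.8 FPKM with control and 14.2 to 21.3 FPKM with resveratrol, a log2 difference of 0.90 ± 0.383 (adjusted p = 0.616). SLC25A11 was at 41.7, 48.6 and 59.2 FPKM with control and 70.6, 70.5 and 78.2 FPKM with resveratrol, a log2 difference of 0.56 ± 0.250 (adjusted p = 0.639). Neither pair of groups overlapped. With the distal marker sum as a covariate the values were 0.46 (P above 0.05) and 0.35 (P above 0.05). With the smooth muscle sum they were 0.86 and 0.56 (P above 0.05 for each). SLC25A4 had 0.80 to 0.88 (P above 0.05) without PW_Con replicate 1, PW_Con replicate 3, PW_Res replicate 2 or PW_Res replicate 3, and P of SLC25A11 was above 0.05 in 8 of the 12 fits without 1 library, at 0.44 to 0.58. FABP6 was at 9621, 8791 and 6518 FPKM in the weaned control libraries and at 24110, 1.70 and 4.81 FPKM in the weaned resveratrol libraries.

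The last comparison asked whether the weaning difference itself differed between the litter sets. This was so at an unadjusted P under 0.05 for 3 of 32 carriers, 1 above 0 (3.31% of all genes) and 2 below (10.4%), beside 13.7% of all genes. The split was 3 above and 2 below with median-of-ratios rescaling and 2 and 1 with quantile normalization. With all 12 libraries SLC25A29 alone also passed a log2 difference of 1 (7.76% of all genes), against 2 members with a pseudocount of 0.1, median-of-ratios rescaling or the distal covariate, or without PW_Con replicate 1, PW_Con replicate 2, W_Res replicate 1, W_Res replicate 3 or PW_Res replicate 2, 3 without W_Con replicate 1 and 4 without PW_Res replicate 1. It was met by 0 with the Ballgown-type model or at a mean of at least 5 FPKM, and by 6 with W_Res replicate 3 as the only sucking resveratrol library. Here 0 had an adjusted p under 0.05 in limma (0%). The count was 5 without W_Con replicate 1 or PW_Res replicate 1 (14.5% and 13.1% of all genes). It was 1 without PW_Res replicate 3 (10.5%) and 1 with the smooth muscle covariate (5.32%).

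SLC25A29 carries the basic amino acids arginine and lysine. It was at 1.23, 1.68 and 0.712 FPKM in sucking control and 1.68, 2.56 and 2.96 FPKM in weaned control libraries, then at 2.03, 3.29 and 3.58 FPKM in sucking resveratrol and 1.92, 1.29 and 1.19 FPKM in weaned resveratrol libraries. The weaned libraries were above the sucking ones in control litters, with 1 pair almost equal at 1.68 FPKM, and below them in resveratrol litters. The log2 difference for weaning was 0.63 ± 0.248 in control (limma adjusted p = 0.264) and -0.67 ± 0.248 in resveratrol litters (adjusted p = 0.213). The control value was 0.46 to 0.59 without W_Con replicate 3, PW_Con replicate 2 or PW_Con replicate 3, and 0.49 with the distal covariate (P above 0.05 for each). The resveratrol litter value was -0.63 to -0.56 without W_Res replicate 2, W_Res replicate 3, PW_Res replicate 2 or PW_Res replicate 3, and -0.42 with the smooth muscle covariate (P above 0.05 for each). The difference between the litter sets was -1.30 ± 0.351 (adjusted p = 0.251) and kept P under 0.05 without any 1 library. In sucking piglets resveratrol and control differed by 0.85 ± 0.248 (adjusted p = 0.133), or by 0.59 with the smooth muscle covariate (P above 0.05). In weaned piglets the resveratrol difference was -0.46 ± 0.248 (adjusted p = 0.683).

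SLC25A35, an orphan carrier, was at 0.307, 0.606 and 0.635 FPKM in sucking control, 1.25, 1.03 and 2.13 FPKM in weaned control, 1.29, 1.51 and 1.05 FPKM in sucking resveratrol and 1.53, 0.782 and 0.894 FPKM in weaned resveratrol libraries. Sucking control piglets had the 3 lowest values of the 12. The log2 difference was 0.69 ± 0.226 for weaning in control litters (limma adjusted p = 0.185) and 0.59 ± 0.226 for resveratrol in sucking piglets (adjusted p = 0.198), and both are read against the same 3 sucking control libraries. For weaning in resveratrol litters it was -0.15 ± 0.226 (adjusted p = 0.760), and the difference between litter sets was -0.84 ± 0.320 (adjusted p = 0.298). Without PW_Con replicate 3 the control weaning difference was 0.50 (P above 0.05). The resveratrol difference in sucking piglets was 0.49 and 0.52 without W_Con replicate 1 and W_Res replicate 2, and 0.48 with the smooth muscle covariate (P above 0.05 for each). The difference between litter sets was -0.79 to -0.66 without W_Con replicate 1, PW_Con replicate 3, PW_Res replicate 2 or PW_Res replicate 3, and -0.71 with that covariate (P above 0.05 for each). The row named SLC25A6 was the third, with a difference between litter sets of 0.96 ± 0.387 (adjusted p = 0.317), which was 0.52 with the smooth muscle covariate (P above 0.05). It was 0.69 to 0.96 without W_Con replicate 2, PW_Con replicate 3, W_Res replicate 2, PW_Res replicate 2 or PW_Res replicate 3 (P above 0.05 for each).

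General markers of mitochondrial content, such as protein import subunits and matrix chaperones, gave the setting for these values. Of 10 tested, of 12 listed, 0 were higher (8.11% of all genes) and 0 lower (7.21%) in control litters after weaning at an unadjusted P under 0.05 in limma. Over both litter sets 0 were higher (6.57%) and 1 was lower (12.5%). Their summed level ranged from 643 FPKM in W_Res replicate 3 to 1394 FPKM in W_Res replicate 1, so that 1 group held both ends of the range. Of 6 carriers and pore proteins tested that the name rule does not cover, of 10 listed, 1 was lower (7.21% of all genes) and 0 were higher (8.11%) in control litters, and none passed over both litter sets (19%).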

How the data were processed

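The authors deposited 1 table of FPKM values per assembled locus for 12 jejunum libraries (41264 loci, 42.8% without a gene name). The submitters' processing notes name HISAT2 2.0, StringTie 1.3.0, Bowtie 0.12.2 and the builds Sscrofa10.2 and mm8; the study's methods name TopHat, StringTie and Ballgown. FPKM holds no read counts, and the read totals that the study lists for some libraries were not used here, so no counting interval was given.

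Loci were summed by gene name, and genes with a mean of at least 0.5 FPKM (12886) were fitted in R 4.3.3 with limma 3.58.1 on log2(FPKM + 1), which understates changes of low genes. All 12 libraries entered 1 fit of 4 group means with 8 residual degrees of freedom and the Benjamini-Hochberg adjustment over all genes. The procedure was tested on simulated data. Members and gene lists were chosen with earlier results of these data known. Genes were named if they led their substrate class or had an unadjusted P under 0.05 in any of 6 comparisons; partner enzymes were named where they act directly with such a carrier. SLC25A1, SLC25A13, SLC25A37, SLC25A38, SLC25A40 and CPOX fall outside this rule and were chosen after their values were seen. The record and the study's methods describe the animals differently (Landrace semen and piglets kept in their pens against Yorkshire and Duroc litters that were moved), and groups follow the record. P-values rest on the spread between 3 libraries a group, pooled over all 4 groups and moderated over genes. Groups outside a comparison therefore also enter its P. Pseudocount, filter, scaling, variance model, replicate block, locus choice, a Ballgown-type model, 6-library fits and leaving out each library were tried. No sequence was printed, since no sequence table was used here.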

Additional observations from a re-analysis of the deposited data

Results flagged for a closer look

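For 3 carriers the log2 difference between weaned and sucking piglets itself differed between litters of control and of resveratrol-fed sows at an unadjusted P under 0.05 in limma, among 32 tested and beside 13.7% of all genes. The difference between litter sets was -1.30 ± 0.351 (SE) for SLC25A29 (adjusted p = 0.251), -0.84 ± 0.320 for SLC25A35 (adjusted p = 0.298) and 0.96 ± 0.387 for the row named SLC25A6 (adjusted p = 0.317). That of SLC25A35 was -0.79 to -0.66 in 4 of the 12 fits without 1 library and -0.71 with the smooth muscle covariate, and that of SLC25A6 was 0.52 with this covariate (P above 0.05 for each). None passes the adjustment over all genes.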

How the results depend on the processing

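Counts of carriers with an unadjusted P under 0.05, as control litters, resveratrol litters, both, resveratrol in sucking, resveratrol in weaned and the difference between litter sets, were 6, 6, 8, 6, 2 and 3. With the replicate block they were 6, 7, 8, 6, 2 and 3. The study's methods took a male piglet from each litter at each age, and the labels do not say which libraries share a litter. Same-numbered libraries' deviations correlated at -0.257 to 0.303 (median 0.0144, n = 18 pairs), and the block moved no count by over 1.5 times. These pairs include ones across the sow diets, which cannot be littermates, so they cannot decide whether the numbers mark litters. Any pairing by litter was left out of the main fit.

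Leaving out each library gave 2 to 8 for control litters, 1 to 8 for resveratrol litters, 5 to 11 for both, 5 to 8 for resveratrol in sucking piglets, 0 to 4 in weaned piglets and 1 to 5 for the difference. At a mean of at least 5 FPKM the counts were 3 (resveratrol litters), 2 (resveratrol, sucking), 1 (resveratrol, weaned) and 1 (difference), with fewer members tested. Median-of-ratios rescaling gave 5 over both, 5 for resveratrol in weaned piglets and 5 for the difference. The Ballgown-type model does not pool its error over genes. Its covariate is each library's summed log2 level of nonzero genes below the upper quartile, and this can move the differences themselves. The model gave 0 in resveratrol litters (3.6% of all genes) and 1 over both (9.06%). It gave 0 for resveratrol in sucking piglets (9.2%) and 0 for the difference (4.94%). For resveratrol in weaned piglets, a pseudocount of 0.1 gave 4, no variance trend 1 and the 6-library fit 5. Chosen after seeing the data, the smooth muscle covariate gave 1 in resveratrol litters (6.08% of all genes) and 4 over both (15.6%). It gave 0 for resveratrol in sucking piglets (8.26%), 1 in weaned piglets (7.57%) and 1 for the difference (5.32%). The distal covariate gave 3 in control litters, 10 in resveratrol litters and 1 for resveratrol in weaned piglets, where 17.7%, 20% and 6.96% of all genes passed. Leaving out W_Res replicates 1 and 2, which leaves 1 library in that group, assumed to vary like the other groups, gave 4 for resveratrol in weaned piglets and 6 for the difference. The cause was not tested.

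Of 31 gene results past the limit, 29 kept their sign in each of the settings tried. Under the Ballgown-type model SLC25A14 and SLC25A6 in resveratrol litters turned to 0.15 and -0.04. Over both litter sets, where the following were not past the limit, signs turned for SLC25A23 (0.27 with the Ballgown-type model, 0.04 with the smooth muscle covariate), SLC25A43 (0.01, Ballgown-type) and SLC25A45 (0.34, Ballgown-type, and 0.02 without W_Res replicates 1 and 2). SLC25A6 gave -0.23 (Ballgown-type), -0.14 without W_Res replicates 1 and 2 and -0.04 with the smooth muscle covariate, SLC25A3 gave 0.08 with median-of-ratios rescaling and 0.00 with the distal covariate, and SLC25A29 gave 0.01 with a pseudocount of 0.1, 0.05 with median-of-ratios rescaling, 0.15 with quantile normalization, 0.25 (Ballgown-type) and 0.09 with the smooth muscle covariate. When each library was left out in turn, SLC25A6 ranged from -0.01 to 0.25, SLC25A3 from -0.09 to 0.05 and SLC25A29 from -0.11 to 0.06.

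With 3 libraries a group and no read counts in the table, a P above the limit does not show that a carrier's level was the same.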

Other observations

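SLC25A27, also called UCP4, lies outside the name rule because its row carries only an Ensembl identifier, ENSSSCG00000001720, and it was looked up after the other results were seen. It was at 7.20, 14.9 and 9.97 FPKM in sucking control and 4.39, 3.44 and 1.49 FPKM in weaned control libraries, and at 6.53, 17.5 and 20.2 FPKM before and 7.02, 5.14 and 5.40 FPKM after weaning in resveratrol litters. The control groups did not overlap, and in resveratrol litters 1 sucking library lay among the weaned ones. The log2 difference over both litter sets was -1.30 ± 0.287 (SE, limma adjusted p = 0.0721), with -1.53 ± 0.407 in control litters (adjusted p = 0.128) and -1.08 ± 0.407 in resveratrol litters (adjusted p = 0.220).

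SLC25A12, also called aralar and the paralogue of citrin, was found in the same way at ENSSSCG00000015949. Its group means were 10.3 ± 2.93 FPKM in sucking control, 6.31 ± 2.53 FPKM in weaned control, 14.1 ± 4.29 FPKM in sucking resveratrol and 9.64 ± 5.39 FPKM in weaned resveratrol piglets (SD, n = 3). Both pairs of groups overlapped, and the log2 difference over both litter sets was -0.62 ± 0.267 (limma adjusted p = 0.242).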
